A study of Mus musculus
Rattus norvegicus and Mus musculus and Rattus norvegicus with 95 samples.

Results

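The cells described here are 4 single lung cells from a rat chimaera made with the mouse-rat allodiploid embryonic stem cell (AdESC) line RM2-1, set against 6 single AdESCs of that line. They are 10 of the 95 samples of the study and 10 of its 87 single cells, and were chosen by the line and tissue in the labels, with no measured value used. AdESCs are hybrid stem cells whose nucleus joins a haploid mouse and a haploid rat chromosome set, and a chimaera is an animal grown from a host embryo that received such cells. The study sequenced RNA from bulk mouse ESC, rat ESC and AdESC lines and from single AdESCs and their derivatives captured on a C1 microfluidic chip. The AdESC cells were labelled as stem cells in G0/G1. The lung cells were labelled by tissue and line only, with no cell cycle stage, age or number of animals, and no label says how donor cells were parted from cells of the host. RM2-1 is a single line, so each group is 1 sample, and the cells show the spread within a sample rather than between animals or cultures. For comparison, 20 somatic cells from the testis of an RM2-1 rat chimaera and 10 fibroblasts from a mouse chimaera of line MR1-1 were used. The lung cells are called A, B, C and D and the AdESC cells A to F, letters that carry no order.

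The lung is built from 3 broad tissue lineages. Epithelium lines the airways and the gas-exchanging alveoli, endothelium lines the blood and lymph vessels, and stroma (fibroblasts, smooth muscle, pericytes) surrounds both and makes the collagen, elastin and proteoglycan matrix, with mesothelium as the outer covering. Pluripotent stem cells divide rapidly and are themselves epithelial in their adhesion molecules. Proliferating cells transcribe one wave of genes for DNA replication around the G1/S boundary and another for chromosome segregation in G2 and M, and cells that stop dividing turn both waves down.

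Values were FPKM, fragments scaled to transcript length and library size, for 13926 genes. Differences are the mean of log2(FPKM + 1) over the lung cells minus the mean over the AdESC cells, so where a gene is listed at 0 in a group the added 1 sets the size of the difference. Genes such as Hprt that most cells transcribe were also listed at 0 in some cells, and a 0 is therefore given only as listed. Summed FPKM ran from 264821 to 352229 in the lung cells and from 329860 to 407477 in the AdESC cells, with 4302 to 5198 and 4211 to 6246 genes at 1 FPKM or more. Among the 7652 genes whose 10 cells averaged 1 FPKM or more, 1969 (25.7%) differed by a log2 of 2 or more, called past the fold below. Of these, 702 (9.17% of all tested) were higher in lung and 1267 (16.6%) lower, and the median gene differed by -0.41. Counts over gene lists below stand beside these shares. In 259 genes (3.38%) every lung cell stood above every AdESC cell, and in 594 (7.76%) every lung cell stood below. Across genes, Pearson's r between 2 lung cells ran from 0.49 (C and D) to 0.61 (A and D), with a median of 0.55. This lay below the range of 0.67 to 0.75 among AdESC cells. Between a lung cell and an RM2-1 testis cell r ran from 0.53 to 0.73, with a median of 0.61. Lung cell D stood apart from the other 3 in its cell cycle genes, and without it 767 genes were higher and 1382 lower. A gene listed at 0 in all AdESC cells enters the tested set only through the lung cells and can then only come out higher, so counts over such lists are descriptions.

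A test was possible only across samples. The mean of log2(FPKM + 1) of each of the 11 single-cell samples entered a limma fit in which 4 AdESC lines and 2 embryoid body samples gave the spread, and the lone lung sample was assumed to vary like them. By this fit 715 of 8421 genes (8.49%) were higher and 1079 (12.8%) lower in lung than in the AdESC lines at an adjusted p of 0.05 (limma, Benjamini-Hochberg). When the cell line was added as a block, which leaves 1 residual degree of freedom, limma called 0 genes in either direction, with 1617 genes at an unadjusted p under 0.05. Without the MR2-1 AdESC sample, 700 genes were lower. Adjusted p-values below are from limma without the block. Neither they nor the SEs given with them measure the spread among the lung cells. A gene near 0 in the AdESC and embryoid body samples varies little there. Its SE and p-value can then be small however much the lung cells differ.

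The 4 cells carried genes of the stroma, least clearly in C, and most defining genes of epithelium and endothelium were at or near 0. Of 14 lists of cell type markers, the smooth muscle list had the highest mean log2(FPKM + 1) in each cell: 6.33 in A, 3.42 in B, 2.46 in C and 6.98 in D, against 0 to 1.59 in the AdESC cells. The next list was mesothelium in A (5.27), the fibroblast and stroma list in B (2.62) and D (4.22), and alveolar type 1 in C (2.07). The order depended on the measure in C and A. By the share of list members at 1 FPKM or more, cell C tied between smooth muscle and alveolar type 1 (30% each), and mesothelium (100% of 4 members) came before smooth muscle (80%) in A. Cell C therefore had the weakest assignment of the 4. It had 3 smooth muscle members at 1 FPKM or more, against 0 to 4 in an AdESC cell. In the fibroblast and stroma list it had 6, against 3 to 7. By members detected, C was thus not above the AdESC cells in either list.

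**Figure D1:**
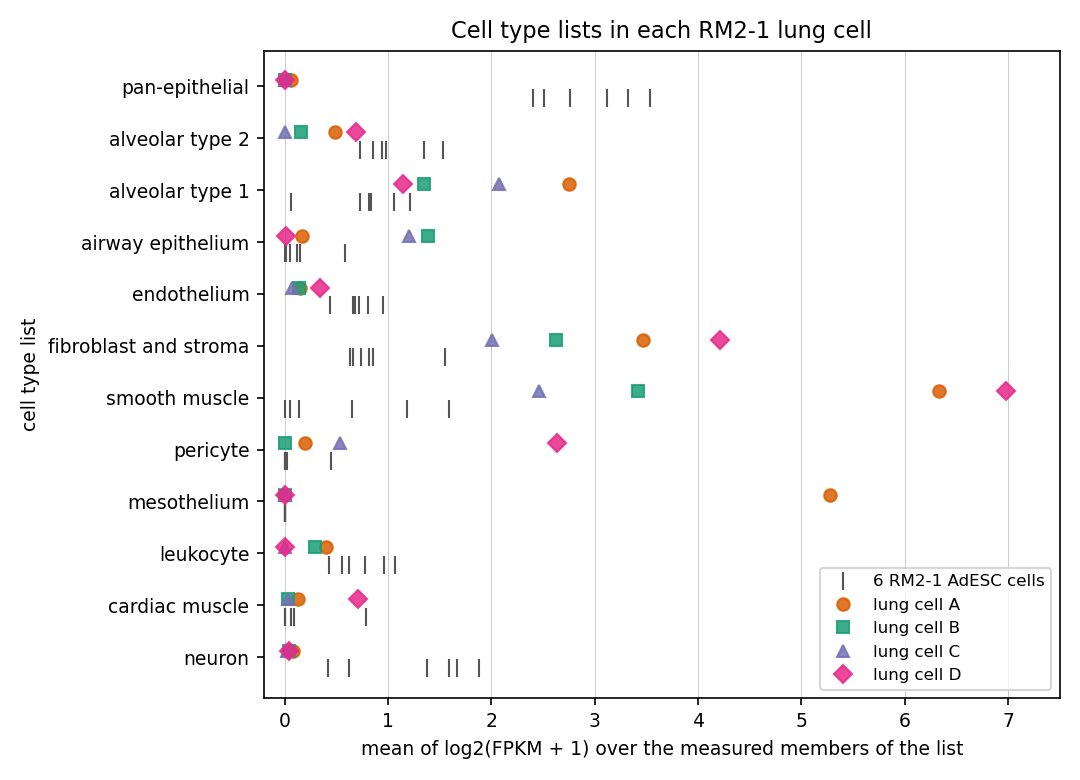
Mean log2(FPKM + 1) over the measured members of 12 of the 14 cell type lists, with a coloured symbol for each of the 4 lung cells and a tick for each of the 6 RM2-1 AdESC cells; the erythroid and chondrocyte lists, at 0 in all 4 lung cells, are not drawn. The smooth muscle list is the rightmost for every lung cell, pan-epithelial values lie at 0 to 0.06, and mesothelium is above 0 only in lung cell A.

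Of 9 measured pan-epithelial genes, 0 reached 1 FPKM in any lung cell, whereas each AdESC cell had 4 to 6 of them, and 5 of the 6 tested members were lower in lung past the fold. Epcam (chromosome 17), an adhesion molecule of epithelia and stem cells, was listed at 0 in all 4 lung cells and at 35.4 to 186 FPKM in the AdESC cells. The adherens junction cadherin Cdh1 (chromosome 8) was at 0 in all 4 lung cells and at 4.68 to 44.8 FPKM in the AdESC cells. Both fell in the limma fit (adjusted p = 0.0205 and 0.0382). The keratin gene Krt19 reached 0.493 FPKM in cell A and 0 in the others, against 45.3 to 271 FPKM in AdESC cells. Those genes parted the 2 groups with no overlap.

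Several genes that mark the specialised lung epithelia were listed at 0, while part of the alveolar type 1 list was high. The surfactant protein genes Sftpc, Sftpa1 and Sftpd of alveolar type 2 cells, the club cell secretoglobin Scgb1a1 and the alveolar type 1 receptor Ager were listed at 0 in all 4 lung cells and in all 6 AdESC cells. Nkx2-1, the master transcription factor of lung epithelium, reached at most 0.18 FPKM in a lung cell. Of 10 measured alveolar type 1 genes 5 were tested, of which 3 were higher in lung past the fold and 0 lower (median difference 2.20), and limma called Cav1 and Akap5 higher (adjusted p = 0.00795 and 0.00125). Podoplanin (Pdpn), a membrane glycoprotein shared by type 1 cells, lymphatic endothelium and fibroblasts, stood at 401, 175, 1180 and 0.353 FPKM in cells A to D, against 0.187 to 148 FPKM in AdESC cells. Caveolin 1 (Cav1), the coat protein of caveolae, stood at 131, 0.827, 0.754 and 71.4 FPKM and was listed at 0 in all AdESC cells. Pdpn thus overlapped the AdESC range through cell D, and Cav1 was high in A and D only. The scaffold gene Akap5 followed another pattern, with 41.6, 24.2, 72.9 and 0.0383 FPKM. The type 1 genes Hopx, Aqp5 and Clic5 were at 0 in every lung cell. With no filter on low values, 3 of 7 type 1 members were higher past the fold, with a median difference of 1.90. Over all tested genes 9.17% were higher and 16.6% lower. In the RM2-1 testis cells the alveolar type 1 list mean ran from 1.54 to 3.39 (median 2.20). Between 2 and 7 of its members reached 1 FPKM in a testis cell, so the list was not particular to lung.

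In the airway list 1 of 3 tested members was past the fold. Aldh1a1 (chromosome 19), a retinaldehyde dehydrogenase, stood at 1.83, 50.1, 1766 and 0.0615 FPKM in cells A to D and was listed at 0 in all 6 AdESC cells. It was therefore high in B and above all in C. The 20 testis cells reached at most 0.222 FPKM, and the mean of the lung sample was higher than those of the testis and fibroblast samples. That mean rests mainly on B and C, and the limma spread does not include the spread among the lung cells. Besides Aldh1a1, cell B alone among the lung cells held the cilia-associated genes Tppp3 (8.11 FPKM) and Ccdc39 (11.2 FPKM). An AdESC cell had up to 2 airway members at 1 FPKM, although Aldh1a1 was at 0 there. The median difference of the 3 tested members was 0.24, and -0.67 without B.

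Endothelial markers were low. Of 17 measured endothelial genes, 3 reached 1 FPKM in any lung cell, and no cell had more than 1 of them. Pecam1 (chromosome 11), an adhesion molecule of endothelium that stem cells also make, was at 0 in all 4 lung cells and at 4.04 to 42.4 FPKM in the AdESC cells (adjusted p = 0.0208). The endothelial cadherin Cdh5, the receptors Tek and Tie1, and Vwf were listed at 0 in all 4 lung cells. Emcn, an endothelial sialomucin, stood at 43 FPKM in cell D and 0 in the other 3. The list means of leukocyte genes (0 to 0.40) were at or below the lowest AdESC cell (0.43), with Ptprc at 0 throughout.

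Of the fibroblast and stroma list, 8 of 14 tested members were higher in lung past the fold and 0 lower, with a median difference of 3.76 (all genes -0.41). Over the 19 members above 0 in any of the 10 cells, with no filter on low values, 8 were higher and the median was 1.41. The limma fit called 8 of 19 higher and 0 lower, and 5 of 19 higher without D. Biglycan (Bgn, X chromosome), a small proteoglycan that binds collagen, stood at 390, 229, 36.1 and 725 FPKM in cells A to D and was listed at 0 in all 6 AdESC cells. Vimentin (Vim, chromosome 2), the intermediate filament of mesenchymal cells, stood at 1498, 69.8, 275 and 943 FPKM, against 0 to 85.6 FPKM in AdESC cells. Bgn parted the groups completely, while the lowest lung value of Vim, in B, lay inside the AdESC range. Both passed the test (differences of 7.73 ± 0.82 and 7.18 ± 1.5, SE over samples, adjusted p = 0.00283 and 0.0215).

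Other stromal genes divided the 4 cells. Secreted Fstl1, an extracellular glycoprotein, stood at 1846, 367, 2.13 and 1269 FPKM, so that C was lower by far than the others. Decorin (Dcn), a proteoglycan of fibroblasts, reached 81.5 FPKM in D and at most 0.306 FPKM in the others. Periostin (Postn), a matrix protein of activated fibroblasts, was at 51.2 FPKM in D and 0 in A, B and C. The fibroblast receptor gene Pdgfra reached at most 0.0255 FPKM and Pdgfrb 1.51 FPKM, and lumican (Lum) and Inmt were at 0 in all 4. Fibronectin (Fn1) stood at 230, 6.35, 0.438 and 258 FPKM, on both sides of the AdESC range of 19.7 to 49.3 FPKM.

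**Figure D2:**
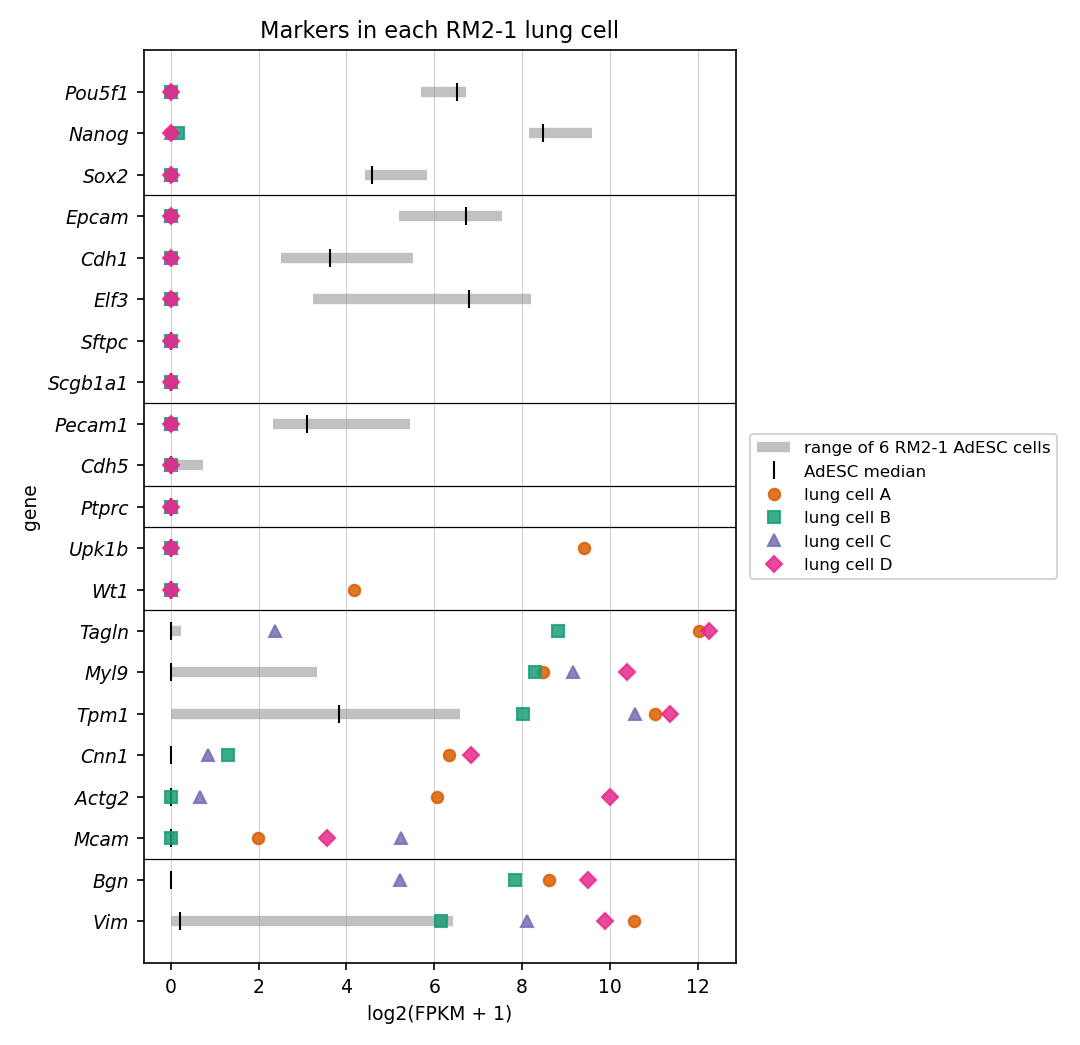
Markers on a log2(FPKM + 1) axis, 1 gene a row, with grey bars for the range and black ticks for the median of the 6 RM2-1 AdESC cells and coloured symbols for the 4 lung cells; lines part pluripotency, epithelial, endothelial, leukocyte, mesothelial, smooth muscle or pericyte, and general stromal genes. Pluripotency and epithelial genes lie at or near 0 in the lung cells, and Tagln, Myl9, Tpm1 and Bgn lie to the right of the AdESC range in all 4.

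Genes of the contractile apparatus were higher in lung. Over all genes 9.17% were higher past the fold and 16.6% lower. Of 9 tested smooth muscle genes, 6 were higher past the fold and 0 lower, also without cell D, with a median difference of 4.19 (2.84 without D), and limma called 7 of 9 higher (6 without D). Transgelin (Tagln, chromosome 9), an actin-binding protein of smooth muscle, stood at 4201, 452, 4.21 and 4902 FPKM in cells A to D, against at most 0.171 FPKM in AdESC cells. The regulatory myosin light chain Myl9 (chromosome 2) stood at 353, 315, 570 and 1340 FPKM, against at most 9.13 FPKM. Tropomyosin 1 (Tpm1, chromosome 9) stood at 2087, 260, 1510 and 2660 FPKM, against at most 95.7 FPKM. All 4 lung cells lay above all AdESC cells in these 3 genes, and Tagln separated C from the other 3. The adjusted p was 0.0133 for Tagln and 0.00724 for both Myl9 and Tpm1.

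The more restricted contractile genes were high in A and D only. Calponin 1 (Cnn1), a thin-filament regulator, stood at 80.3, 1.49, 0.803 and 113 FPKM and was at 0 in the AdESC cells. The enteric smooth muscle actin gene Actg2 stood at 65.8, 0, 0.594 and 1030 FPKM. The muscle intermediate filament gene Des stood at 90.8, 0, 0.0847 and 11.7 FPKM. Cells A and D thus held the wider contractile set and B and C only part of it. Acta2 and Myh11, further smooth muscle markers, were among the 112 of 571 list genes not measured in the table. Leaving out D, the Cnn1 adjusted p was 0.0972 (with D 0.0446).

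Among the lung cells, A and D each had a marker set of their own. In A all 4 measured mesothelial genes were on: Upk1b, a tetraspanin of urothelium and mesothelium, at 674 FPKM, the transcription factor Wt1 at 16.9, mesothelin (Msln) at 18.9 and Gpm6a at 8.27 FPKM. All 4 were listed at 0 in B, C, D and the AdESC cells. Some testis cells and MR1-1 fibroblasts held mesothelial genes too. The list mean reached 4.85 in testis (median 0.57, up to 3 members at 1 FPKM) and 3.80 in fibroblasts (median 0.07, up to 2 members). Cell A also held Tbx5 (20.6 FPKM) and Tbx4 (2.46 FPKM), T-box factors of lung mesenchyme, and the branching signal Fgf10 (34.6 FPKM), which were at 0 in the other 3 lung cells. In D, 6 of 10 pericyte genes reached 1 FPKM, against at most 1 in the other lung cells and at most 5 in a testis cell. Those of D included the G-protein regulator Rgs5 (21.5 FPKM), the proteoglycan Cspg4 (14.8), the cytochrome oxidase subunit Cox4i2 (27.8) and Ndufa4l2 (76.5 FPKM). Each was at no more than 0.0208 FPKM in A, B and C. The pericyte genes Notch3, Kcnj8 and Higd1b were nevertheless at 0 in D. Cell D also held Tcf21 (15.0 FPKM) and Prrx1 (15.8 FPKM), transcription factors of fibroblast precursors.

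Cells B and C shared the cardiac and mesenchymal factor Gata4 (31 and 72.2 FPKM), which was at 0 in A and 0.154 FPKM in D. Integrin alpha 8 (Itga8), a receptor gene of myofibroblasts and smooth muscle, stood at 79.6 FPKM in B and at most 0.802 FPKM in the others. Twist1, a mesenchymal factor, was found in B (9.95 FPKM) and D (10.5 FPKM). Of 9 tested lung mesenchyme factors, 0 were higher past the fold, and 1 was lower, Tbx3, at 16.7 to 75.1 FPKM in AdESC cells and at most 3.75 FPKM in lung. The count of 0 depended on the setting: 6 were higher with the log2 of mean FPKM, 4 with a pseudocount of 0.1, 2 without cell A, 2 without C, and 1 without B or D. Over all genes 9.17% were higher and 16.6% lower, and 9 factors are too few to set against those shares. The Hox gene Hoxb5 and Meox2 were at 0 in all 4 lung cells. Each of the factors named here that was on in lung was thus on in 1 or 2 of the 4 cells at 1 FPKM or more.

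Collagen genes were on in every lung cell, but not the same ones. Of 14 measured collagens 9 were tested, and 7 of these were higher past the fold and 0 lower. The AdESC cells held little collagen RNA, so tested members had entered mainly through the lung cells, and the median difference was 4.08 over the 9 and 2.54 over the 13 members above 0 in any cell. The limma fit called 7 of 10 higher. Type I collagen, the main fibrillar collagen, was uneven: Col1a1 stood at 325, 12.8, 0 and 36.7 FPKM and Col1a2 at 116, 0.0333, 0.133 and 46.8 FPKM in cells A to D. Type III collagen ran in another order, with Col3a1 at 42.9, 278, 182 and 8.58 FPKM. Col5a2, a chain of the regulatory type V collagen, was even, at 50, 70.4, 78.1 and 55.7 FPKM. All 4 genes were listed at 0 in the 6 AdESC cells. So cells A and D held more type I than type III collagen RNA and B and C more type III than type I, while Col5a2 differed little among them. Leaving out A brought the Col1a2 difference from 3.17 to 1.94, under the fold. The basement membrane chain Col4a1 stood at 41.5, 53.1, 7.53 and 144 FPKM against 0 in the AdESC cells, and its adjusted p was 0.0714.

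Enzymes that mature collagen were higher as well, beside 9.17% higher and 16.6% lower over all genes. With no filter on low values, 9 of 18 were higher past the fold, with a median difference of 2.25. Of 16 tested, 9 were higher past the fold and 0 lower (8 higher without D), and limma called 8 of 17 higher. The prolyl hydroxylase subunit P4ha1 stood at 51, 24.4, 34.8 and 12.3 FPKM, all above the AdESC maximum of 8.41 FPKM. The lysyl hydroxylase Plod2 stood at 28.1, 225, 42 and 20.2 FPKM, against at most 3.25 FPKM. The collagen chaperone Serpinh1 stood at 31.2, 28.2, 11.3 and 25.5 FPKM, against at most 6.53 FPKM. These 3 genes were higher in all 4 lung cells than in any AdESC cell, and each passed the test (adjusted p = 0.0439, 0.0207 and 0.0339). The cross-linking lysyl oxidase Lox was instead high in A (138 FPKM) and D (22.1 FPKM) and low in B (0.141 FPKM) and C (2.92 FPKM). Elastin (Eln) was at 0 in every lung cell. Of 8 tested elastic fibre genes, 3 were higher past the fold, among them Ltbp1 and Ltbp3, which bind latent TGF-beta. With no filter, 3 of 13 elastic fibre genes were higher, with a median difference of 0.84.

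**Figure D3:**
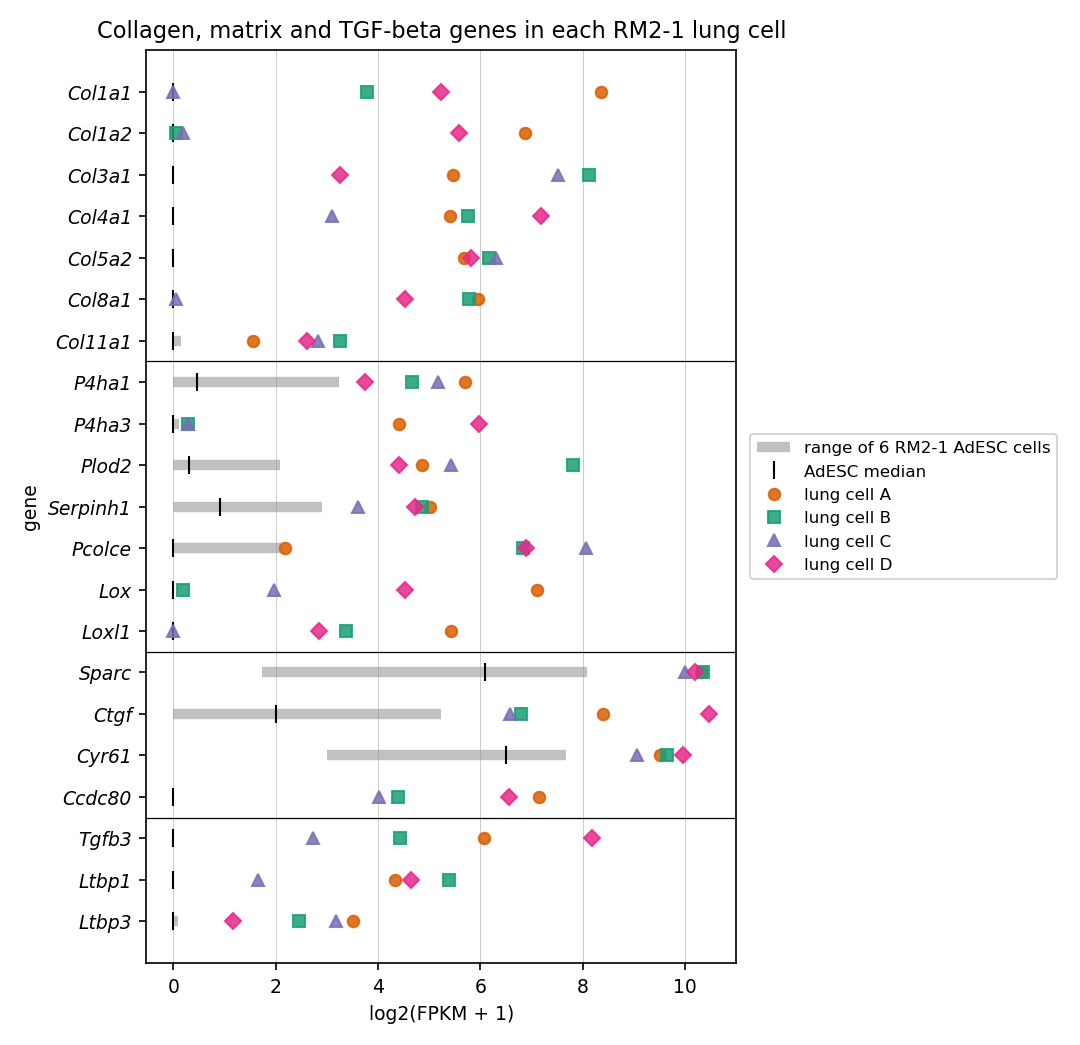
Collagen chains, collagen-processing enzymes, matricellular genes and TGF-beta genes in blocks from top to bottom, on a log2(FPKM + 1) axis, with grey bars for the range and ticks for the median of the 6 RM2-1 AdESC cells and symbols for the 4 lung cells. Col5a2 clusters at 50 to 78.1 FPKM in the lung cells while Col1a1 and Col1a2 spread from at or near 0 to over 100 FPKM.

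Matricellular genes, which sit in the matrix and modulate cell contact, were also higher. Of 9 tested proteoglycan and matricellular genes, 5 were higher and 0 lower past the fold (9.17% and 16.6% over all genes). With no filter on low values, 5 of 12 were higher, with a median difference of 1.84. Sparc, a collagen-binding glycoprotein, was even among the lung cells at 1263, 1309, 1024 and 1165 FPKM, against 2.35 to 268 FPKM in AdESC cells. The 2 groups did not overlap, but Sparc missed the threshold over samples (adjusted p = 0.0557). Ctgf, a matricellular target of TGF-beta and YAP, stood at 334, 110, 94.5 and 1419 FPKM against at most 36.7 FPKM (adjusted p = 0.0247). Cyr61, of the same family, stood at 727, 799, 530 and 989 FPKM against 7.02 to 203 FPKM (adjusted p = 0.00886). Each of these 3 was above the AdESC maximum in all 4 lung cells.

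Of 11 tested TGF-beta pathway genes, 5 were higher and 1 lower past the fold (4 and 1 without D). Over all genes the shares were 9.17% and 16.6%. With no filter on low values, 5 of 16 members were higher, with a median difference of 0.94. The ligand Tgfb3 stood at 65.9, 20.6, 5.68 and 288 FPKM and was at 0 in all AdESC cells (difference 5.35). Tgfb2 was high in A (14.6 FPKM) and D (113 FPKM) and at most 0.325 FPKM in B and C, and Tgfb1 was at 0 in all 4. The shared signal transducer Smad4 was the lower member, at 6.53, 0.0525, 0 and 1.39 FPKM against a median of 17.4, and did not pass the test (adjusted p = 0.273). The chemokine Cxcl12, a stromal signal to blood and immune cells, stood at 25.6, 20.0, 124 and 88.2 FPKM against at most 0.0703 FPKM (adjusted p = 0.00336). Itgb1, the beta chain of most matrix receptors, stood at 178, 82.8, 178 and 551 FPKM against 4.73 to 40.8 FPKM (adjusted p = 0.00113).

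Among the 15 largest differences upward with no overlap, genes outside these lists were the small heat shock protein Cryab, the protease-like Prss35, the LIM-domain protein Fhl2, the phospholipid-binding annexin Anxa5, the membrane proteins Tmem176b and Tspo, the IGF-binding Igfbp7, the glutathione transferase Mgst1, the chemokine Ccl2, the prolyl isomerase Fkbp7 and the metalloprotease inhibitor Timp3. Cryab stood at 449, 250, 238 and 1538 FPKM against at most 1.40 FPKM in AdESC cells. Ccl2 stood at 95, 22.1, 4.81 and 15875 FPKM against at most 0.293 FPKM. Mgst1 stood at 33.7, 795, 1214 and 37.2 FPKM against at most 8.69 FPKM. Cryab was highest in D, Ccl2 was concentrated in D by orders of magnitude, and Mgst1 was concentrated in B and C.

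Core pluripotency genes were at or near 0 in the lung cells. Of 19 tested genes, 17 were lower in lung past the fold (18 without D, median difference -4.89) and limma called 15 lower. Pou5f1 (chromosome 17) and Sox2 (chromosome 3), core factors of the stem cell state, were at 0 in all 4 lung cells, against 51.3 to 105 and 20.3 to 56.5 FPKM in AdESC cells. Nanog (chromosome 6), the third core factor, reached 0.122 FPKM in B and 0 in the others, against 285 to 770 FPKM. No lung cell came near the lowest AdESC cell in any of them, and all fell (adjusted p = 0.000878, 0.00326 and 0.000624). The other largest differences downward included the threonine dehydrogenase Tdh, the glutathione peroxidase Gpx2, the hormone precursor Trh, the methyltransferase cofactor Dnmt3l and the TGF-beta family ligand Gdf3, all at 0 in every lung cell. Klf4 and Klf5, factors also used outside stem cells, were on in some lung cells: Klf4 at 14.0 FPKM in A and 14.9 FPKM in D, and Klf5 at 7.49 FPKM in A.

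The lung cells had lower cell cycle RNA than the AdESCs, in 3 cells to a large extent and in D to a smaller one. The mean log2(FPKM + 1) over 44 G1/S and replication genes was 1.72 in A, 1.06 in B, 0.36 in C and 3.93 in D, against 4.57 to 5.13 in the AdESC cells. Over 48 G2/M and mitosis genes it was 1.19, 0.79, 0.50 and 4.04, against 4.44 to 5.85. All 4 lung cells lay below the lowest AdESC cell in both lists, and D was nearest to it. The lung mean was lower by 3.14 (SD over the 4 cells 1.54) in the first list and by 3.44 (SD 1.63) in the second. Leaving out D, the differences were -3.86 and -4.24. The AdESC cells carry a G0/G1 label and yet all 6 had 39 or more of the 48 G2/M genes at 1 FPKM, so the comparison is with cells rich in both sets of RNA.

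**Figure D4:**
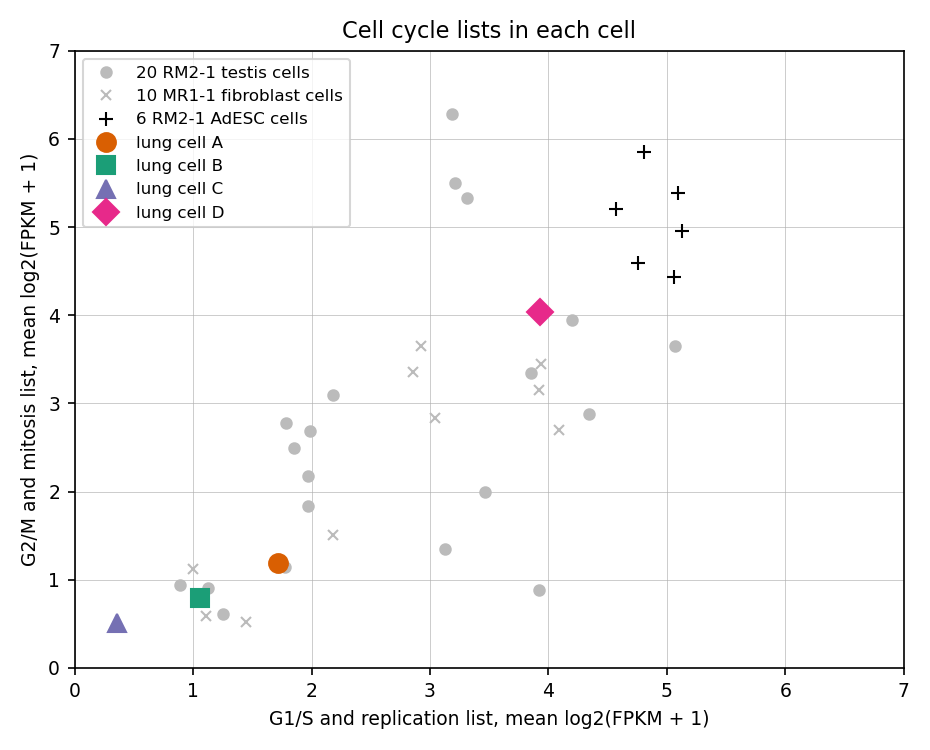
Mean log2(FPKM + 1) of the G1/S list (x axis) and the G2/M list (y axis), 1 symbol a cell: 4 lung cells in colour, 6 RM2-1 AdESC cells as black crosses, 20 RM2-1 testis cells as grey dots and 10 MR1-1 fibroblasts as grey x marks. Lung cells A, B and C lie at 0.36 to 1.72 and 0.50 to 1.19, and cell D at 3.93 and 4.04, near the AdESC cells.

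Among the 42 tested G1/S genes 35 were lower in lung past the fold and 0 higher (37 without D), and limma called 34 of 44 lower. When the log2 was taken of the mean FPKM of each group, which weights the highest cell most, 23 of the 42 were lower past the fold. In A 23 of 44 members reached 1 FPKM, in B 13, in C 5 and in D 36. Pcna (chromosome 2), the sliding clamp of DNA polymerase, stood at 52.1, 4.75, 14.8 and 487 FPKM in cells A to D, against 192 to 408 FPKM in AdESC cells. Mcm2 (chromosome 6), a subunit of the replicative helicase, stood at 5.17, 0, 0 and 16.2 FPKM, against 25.5 to 181 FPKM. D thus exceeded every AdESC cell in Pcna and stayed below them in Mcm2. The adjusted p was 0.0037 for Pcna and 0.00176 for Mcm2.

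Cell D did not hold all replication genes at stem cell levels. Cyclin E1 (Ccne1), which drives entry into S phase, stood at 90 FPKM in D and 0 in A, B and C, against 0 to 86.2 FPKM in AdESC cells. The clamp loader subunit Rfc4 stood at 67 FPKM in D and at most 1.81 FPKM in the others. By contrast Uhrf1, which couples replication to DNA methylation, was at 0 in D as in B and C and at 1.08 FPKM in A, against 63 to 187 FPKM in AdESC cells. Cdc45 and Cdt1, which load and start the helicase, stood at 2.06 and 0.456 FPKM in D, against lowest AdESC values of 26.2 and 9.85 FPKM. Prim2, a primase subunit, was an exception to the direction of the list, at 51.8, 63.1, 0 and 26.1 FPKM against 0.0847 to 31.2 FPKM.

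Among the 46 tested G2/M genes 40 were lower in lung past the fold and 0 higher (43 without D, 30 when the log2 was taken of mean FPKM). The limma fit called 30 of 48 lower, and 37 without D. In A 14 of 48 members reached 1 FPKM, in B 9, in C 6 and in D 40. Top2a (chromosome 11), the topoisomerase that untangles replicated chromosomes, stood at 0.073, 0.107, 0.0694 and 117 FPKM, against 25.4 to 160 FPKM in AdESC cells. Cdk1 (chromosome 10), the kinase that starts mitosis, stood at 34.4, 0, 0 and 84.3 FPKM, against 56.8 to 395 FPKM. The proliferation marker Mki67 stood at 11.0 FPKM in D and 0 in A, B and C, against 0.705 to 22.7 FPKM. Cell D lay inside the AdESC range for all 3 genes, A held Cdk1 without Top2a or Mki67, and B and C held none of the 3. Top2a and Mki67 missed the threshold (adjusted p = 0.0505 and 0.0745) and passed it without D (0.0174 and 0.0284), whereas Cdk1 passed (0.0152).

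Several late mitotic genes were low in D as well. The polo kinase Plk1 reached at most 0.227 FPKM in a lung cell, against 15.6 to 148 FPKM in AdESC cells. The anaphase activator Cdc20 stood at 13.0, 0, 0 and 1.06 FPKM, against 117 to 290 FPKM. The centromeric histone Cenpa, the kinesin Kif2c and the kinetochore gene Ndc80 were listed at 0 in all 4 lung cells. In contrast the spindle gene Tpx2 (78.6 FPKM), the cytokinesis gene Racgap1 (80.9 FPKM) and the ubiquitin-conjugating enzyme Ube2c (150 FPKM) were on in D and at most 2.66 FPKM in the others. Cell D therefore carried part of the mitotic set at AdESC levels and part of it far below. Doublets were not called, and in D the smooth muscle, pericyte and cell cycle lists were all high. Its number of genes at 1 FPKM (4706) lay within the range of the other 3 lung cells (4302 to 5198). Its summed FPKM (352229) lay above theirs (at most 294985), as did its Actb value (17260 FPKM against at most 8892 FPKM). Whether D was a doublet was not tested.

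The lung and AdESC cells differed in which D-type cyclin, a class that starts the G1 programme, they held. Cyclin D1 (Ccnd1, chromosome 7) stood at 2.55, 2.08, 2.84 and 0 FPKM in the lung cells, against 26.5 to 52.5 FPKM in AdESC cells (adjusted p = 0.0397, 0.05 without D). Cyclin D2 (Ccnd2, chromosome 6) stood at 51.5, 3.58, 5.09 and 85.1 FPKM and was listed at 0 in all 6 AdESC cells (adjusted p = 0.0775). The groups did not overlap in either gene, in opposite directions, and only Ccnd1 passed the test. Of the 8 tested G1 cyclin and kinase genes these were the only ones past the fold, beside 9.17% higher and 16.6% lower over all genes.

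Inhibitors of cyclin-dependent kinases were not higher across the 4 cells. Of 3 tested, 0 were higher past the fold and 1 lower, too few to set against the shares over all genes (9.17% and 16.6%). Cdkn1a (p21, chromosome 17), the p53-induced inhibitor, stood at 19.7, 0.0886, 0.265 and 0.0654 FPKM, against 2.26 to 140 FPKM in AdESC cells (adjusted p = 0.0846). Cdkn1b (p27, chromosome 6), an inhibitor of resting cells, stood at 4.58, 11.6, 4.66 and 6.77 FPKM, within the AdESC range of 0.678 to 17.4 FPKM. Cdkn1c (p57), an inhibitor of differentiating cells, stood at 15.0 FPKM in D and 0 in A, B and C. The cells with the least cell cycle RNA, B and C, thus had p21 near 0 and p27 in the stem cell range, and Cdkn2a and Cdkn2c were at 0 in all 4.

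Of 12 tested genes for pocket proteins and quiescence, 2 were higher and 2 lower past the fold (3 and 1 without D), shares near those over all genes (9.17% and 16.6%), and nothing is read from the counts. The higher ones were Gas6 (difference 2.41) and Btg2 (2.42), and the lower ones E2f4 and Klf9 (-2.55). The median difference of the 12 genes was -0.33, against -0.41 over all genes. Gas6, a ligand of Axl-family receptors raised on growth arrest, stood at 6.80, 110, 33.3 and 0.208 FPKM against at most 11.3 FPKM in AdESC cells (adjusted p = 0.015). Rbl2 (p130), the pocket protein of resting cells, stood at 0, 17.3, 6.44 and 0.266 FPKM against at most 2.95 FPKM (adjusted p = 0.0354). Gas6 and Rbl2 were above the AdESC maximum in B and C and not in A or D, and the Rbl2 difference of 1.11 was under the fold. The antiproliferative gene Btg2 stood at 118, 40.2, 2.93 and 41.4 FPKM against 0 to 131 FPKM. Of 18 p53 targets 4 were higher and 2 lower past the fold (3 and 3 without D), with a median difference of 0.03. Nothing is read from these counts beside the same shares over all genes.

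Genes of ribosome production were lower too. Of 19 tested nucleolar and Myc-programme genes 13 were lower past the fold and 0 higher (14 lower without D), and limma called 13 lower. With the log2 of mean FPKM, and likewise without cell C, 7 were lower past the fold. Npm1 (chromosome 11), an abundant nucleolar chaperone, stood at 1939, 413, 344 and 1810 FPKM against 3516 to 5368 FPKM in AdESC cells (adjusted p = 0.0154). The ribonucleoprotein gene Nop58 stood at 43, 3.96, 1.06 and 182 FPKM against 131 to 385 FPKM (adjusted p = 0.00336). The list mean was 5.09 in A, 3.18 in B, 2.69 in C and 4.58 in D, so that B and C were lowest, as in the cell cycle lists, while A and not D was highest. Myc itself was not lower, at 21.9, 0, 34.5 and 32.3 FPKM against 0.159 to 39.5 FPKM, whereas Mycn fell to 0 in B, C and D (adjusted p = 0.00419).

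Beside these results stand 2 measures of the state of the cells. Among 10 housekeeping genes 0 were higher and 2 lower past the fold, with list means of 7.71 to 8.28 in lung and 8.91 to 9.44 in AdESC cells. Over all tested genes 9.17% were higher and 16.6% lower, and nothing is read from the housekeeping counts. Of 15 immediate early genes, which respond to tissue dissociation among other stimuli, 4 were higher and 2 lower. Fos stood at 107, 181, 5.97 and 0.706 FPKM against at most 0.226 FPKM in the AdESC cells (adjusted p = 0.0441), and Dusp1 at 91.2, 295, 40.4 and 43.3 FPKM against 1.70 to 53.7 FPKM. Their part in the differences above was not tested.

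The lung sample was also set against the testis somatic cells of the same line, 1 sample against 1. In the limma fit 43 genes (0.511%) were higher and 36 (0.428%) lower in lung than in testis, and 928 had an unadjusted p under 0.05. These counts depended on single cells: without A they were 76 and 117, and without D 78 and 130. With no filter on low values they were 228 and 388, and how alike the samples are cannot be read from them. The smooth muscle list mean ran from 5.53 to 7.61 in the 20 testis cells, so that lung A and D fell within that range and B and C below it. The fibroblast and stroma list ran from 3.34 to 5.14 in testis, with A and D inside and B and C below. Bgn (159 to 916 FPKM), Tagln (1553 to 6669 FPKM) and Vim (760 to 2918 FPKM) were on in all 20 testis cells, and none passed the test between the samples (adjusted p = 0.765, 0.703 and 0.87), which does not show that they were equal. Col1a2 was lower in lung (testis 31 to 161 FPKM, adjusted p = 0.023).

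Against the 10 MR1-1 cells labelled fibroblast, 176 genes (2.09%) were higher and 53 (0.629%) lower in lung. Without A 106 and without D 108 were lower. Of the fibroblast and stroma list, limma called 1 member higher in lung, Bgn, and 1 lower, lumican (Lum, adjusted p = 0.00152). The list means of the fibroblasts ran from 1.17 to 4.76, and 2 of them, at 4.63 and 4.76, stood above every lung cell. Bgn reached 1 FPKM in 3 of 10 cells and was higher in lung (adjusted p = 0.0413), and Tgfb3 was at 1 FPKM in 0 of 10 (adjusted p = 0.00355). Igfbp7, an IGF-binding protein of vessels and stroma, stood at 20.9, 476, 426 and 81.6 FPKM in lung and reached 1 FPKM in 2 of the 10 fibroblasts (adjusted p = 0.00508). This comparison also crosses line and host species, which cannot be told apart from tissue.

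In the cell cycle lists the lung cells were not separate from other differentiated cells. The G1/S list mean lay below the lowest RM2-1 AdESC cell in 19 of 20 testis cells and 10 of 10 fibroblasts, and the G2/M mean in 17 of 20 and 10 of 10. Medians were 2.65 and 2.59 in testis and 2.89 and 2.77 in fibroblasts, between the values of lung cells A, B and C and that of D. Lung cell C was lower in both lists than every testis and fibroblast cell. No G1/S or G2/M gene was called by limma between lung and testis in either direction, and 1 G1/S gene was lower in lung than in fibroblasts, Rfc4 (adjusted p = 0.0296).

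The lung cells also held values of genes that the rat ESC libraries list at 0. Of 71 such genes, with at least 10 FPKM in both mouse ESC lines, 45 reached 1 FPKM in A, 31 in B, 37 in C and 41 in D, against 44 to 56 in the AdESC cells and 37 to 58 in testis cells. Those on in lung were all among the 67 autosomal ones. The other 4 are X-linked, Hprt, Bex4, Timm17b and Rlim, and were listed at 0 in all 4 lung cells. Hprt, a purine salvage enzyme, stood at 137 to 189 FPKM in every AdESC cell and was at 0 in all 20 testis cells. Bex4 stood at 33.8 to 233 FPKM in the AdESC cells.

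X-linked genes as a whole were lower in lung than autosomal ones, a split chosen after the values were seen. Of 243 tested X-linked genes 78 (32.1%) were lower past the fold and 21 (8.64%) higher, against 1188 (16.1%) and 680 (9.19%) of 7398 autosomal genes. The median difference was -1.09 for X-linked and -0.39 for autosomal genes. It was similar in each lung cell, from -1.07 in D to -1.14 in A for X-linked genes and from -0.35 in A to -0.66 in B for autosomal genes. The share of tested X-linked genes at 1 FPKM ran from 49.8% to 54.7% in lung and from 58.8% to 82.7% in AdESC cells. In each lung cell it was below the autosomal share, and in each AdESC cell above it. Some X-linked genes were high in lung, Bgn among them, at 36.1 FPKM or more in all 4 cells. The low X-linked values were not particular to lung. Mean log2(FPKM + 1) over all 445 X-linked genes was 1.37 to 1.51 in lung and 1.79 to 2.33 in AdESC cells. In testis cells it was 1.48 to 1.81 (median 1.56) and in MR1-1 fibroblasts 1.16 to 1.46 (median 1.36).

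**Figure D5:**
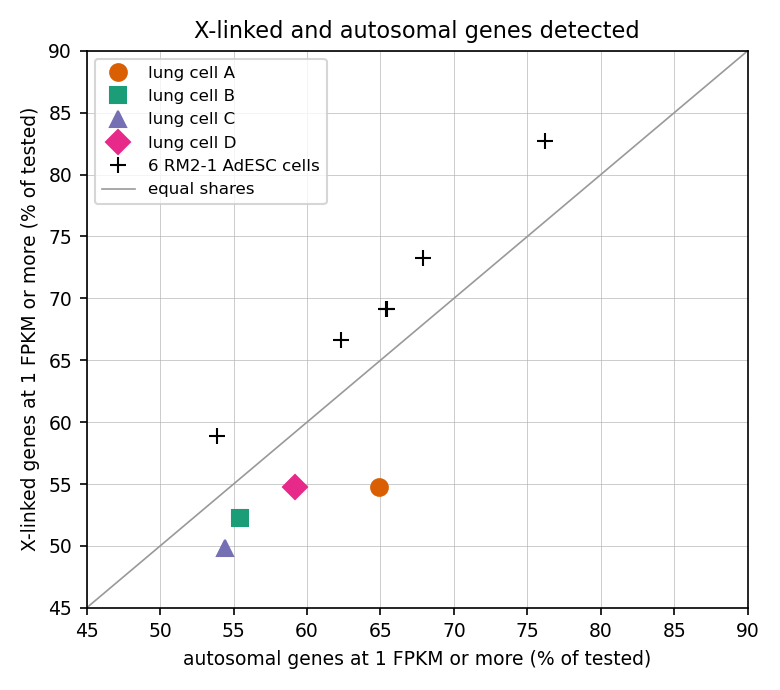
Share of tested genes at 1 FPKM or more, autosomal on the x axis and X-linked on the y axis, 1 symbol for each of the 4 lung cells and 6 RM2-1 AdESC cells, with a line of equal shares. The lung cells lie under the line at 49.8% to 54.7% of X-linked genes and the AdESC cells above it at 58.8% to 82.7%.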

How the data were processed

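The authors deposited FPKM values for single cells and bulk ESC libraries. The submitters' processing notes name FastQC 0.10.1, TopHat2 2.0.10, Cufflinks 2.1.1, mm10 and rn5; how mouse and rat values were joined is not given in the sources used here. Depth is unknown, so no counting interval is given. Cells were mapped by column header; 0 columns were identical; doublets were not called. Genes needed a mean of 1 FPKM over the 10 cells, and "past the fold" means a log2 difference of 2 or more. The test was limma 3.58.1 under R 4.3.3 (trend, Benjamini-Hochberg) on sample means of log2(FPKM + 1). A check on simulated data drew every sample, lung included, with the spread of the AdESC lines. It therefore cannot show that the lung sample varies like them. The labels do not say that samples are separate cultures or animals, and each p-value then reflects sample spread alone, which may be technical. Chromosomes of named genes are from GENCODE M21. The X-linked and autosomal sets are from RefSeq gene annotation, matched by symbol or synonym. The text names the 15 largest rises and falls without overlap, fixed markers and up to 5 members of each of 35 lists with the largest difference; other genes, and those setting 1 cell apart, were chosen after their values were seen. Members and lists were chosen with earlier results of these data known. Of the fixed designs, the promoter motif search was not run. Some members are not reported here.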

Additional observations from a re-analysis of the deposited data

Results flagged for a closer look

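In 11 of 76 groups of values, the highest or lowest cell stood far from the rest of its group by Dixon's test. The groups were list means, summed FPKM, number of genes at 1 FPKM and the share held by the highest genes. Chance would flag about 1 in 20 groups if values were normal and groups independent. Here lists share genes and many values are 0, so that rate is only a guide. All flagged values are a cell's mean log2(FPKM + 1) over a list. Lung cell A stood apart in the mesothelium list, at 5.27 against 0 in B, C and D, and in the pan-epithelial list, at 0.0642 against 0, the latter from Krt19 below 1 FPKM. Lung cell D stood apart in the list of pocket proteins and quiescence, at 1.35 against 2.34 to 2.53, and in the cardiac muscle list, at 0.71 against 0.03 to 0.13. Lung cell C stood apart in lung mesenchyme transcription factors, at 0.44 against 1.05 to 1.09.

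AdESC cell A stood apart from the other 5 stem cells in 5 lists: fibroblast and stroma (1.55 against 0.63 to 0.85), pericyte (0.45 against 0 to 0.02), cardiac muscle (0.79 against 0 to 0.09), chondrocyte (0.54 against 0) and integrins (1.39 against 0.68 to 0.91). Its stromal value was still under the lowest lung cell (2.00). AdESC cell C stood apart in the airway list, at 0.58 against 0 to 0.15.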

How the results depend on the processing

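With a pseudocount of 0.1 in place of 1, 1323 genes were higher and 2293 lower in RM2-1 lung past the fold (702 and 1267 in the report), and with the log2 of mean FPKM 1167 were higher. With the cell line as a block, limma called 0 genes up and 0 down against the AdESC lines. Leaving out 1 lung cell or 1 AdESC sample, it called 484 to 810 up and 700 to 1346 down. Against testis, limma called 28 up with the pseudocount of 0.1, 228 up and 388 down with no filter on low values, and 18 down with the log2 of mean FPKM; leaving out 1 lung cell gave 35 to 78 up and 27 to 130 down. Against fibroblasts it called 481 up and 318 down with no filter, 80 down with the pseudocount of 0.1 and 112 down with the log2 of mean FPKM; leaving out 1 lung cell gave 202 to 263 up and 47 to 108 down. The causes were not tested. By the share of members at 1 FPKM, a stromal list (mesothelium included) led alone in 3 of the 4 cells, with C tied. Of 125 named genes past the fold, 99 stayed past it in all 14 settings, 26 fell under it in some, and 0 reversed. No paired analysis was possible because replicate numbers only name single cells and the test uses 1 value per sample.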

Other observations

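Each lung cell held genes at a log2 of 2 or more above every other lung cell: 611 in A, 502 in B, 502 in C and 668 in D. The examples here were chosen after their values were seen. In A, the interleukin-33 receptor Il1rl1 stood at 100 FPKM and the basal keratin Krt14 at 80.6 FPKM, with at most 0.127 FPKM of each in B, C and D. In B, the antimicrobial peptide gene Camp stood at 483 FPKM, C1qtnf3 at 481 and the retinaldehyde reductase Dhrs3 at 265 FPKM, with at most 0.137 FPKM in the others. In C, the prostaglandin D synthase Ptgds stood at 210 FPKM and the alcohol dehydrogenase Adh1 at 191 FPKM, with at most 0.124 FPKM in the others. In D, 2810417H13Rik stood at 222 FPKM and the synuclein Sncg at 138 FPKM, with 0 in A, B and C.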
